A study of Mus musculus with 6 samples.

Results

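The genes described here are the neurotrophins Bdnf and Ntf3 and the neurotrophin receptors Ntrk2, Ntrk3 and Ngfr, 5 of the 24411 gene symbols counted in RNA from mouse cochlea. They were chosen by symbol, as ligands and receptors that support the innervation of the cochlea, and all 5 passed the filter on low counts that left 15303 genes to test. RNA was sequenced at P9, before the onset of hearing, from sensory epithelium of Kir2.1-OE mice, genotype Otof rtTA+/-; Kir2.1+/-, and of littermate controls, genotype Otof rtTA+/-; Kir2.1+/+. Both groups carried the rtTA transactivator on a C57BL/6N background. Both were exposed to doxycycline (DOX) through their mothers, whose drinking water held it at 0.5 mg/ml from conception and during breast-feeding. In Kir2.1-OE mice DOX turns on a tetO-driven Kir2.1 transgene, an inward rectifier K+ channel, in the cells where the Otof promoter is active, which in the cochlea are hair cells and mainly inner hair cells (IHCs). Each group had 3 libraries, and each library was 1 pool of 8 cochleae from 4 mice, so that the replicate is a pool and its values are averages over animals.

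Neurotrophins are secreted proteins that keep sensory neurons alive and guide their fibers. In the cochlea Bdnf and Ntf3 are made by hair cells and supporting cells, and the spiral ganglion neurons that contact the hair cells carry their receptors TrkB, encoded by Ntrk2, and TrkC, encoded by Ntrk3. Ngfr encodes the p75 receptor, which binds all neurotrophins and their uncleaved precursors and is found on neurons and on Schwann cells. The comparison asks how these genes stood in cochleae in which Kir2.1 was overexpressed, mainly in IHCs.

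Between 35430940 and 41205047 reads were assigned to genes in each library. Kcnj2, which encodes Kir2.1, had 3608, 3809 and 2211 normalized counts in the Kir2.1-OE pools (replicates 1, 2 and 3, the order used throughout) and 235.5, 227.8 and 225.7 in the control pools. Normalized counts are counts divided by each library's TMM-scaled size and set to their geometric mean size. The overexpressed gene was therefore high in each library labelled Kir2.1-OE. Markers of hair cells, supporting cells, neurons and glia were all present in the 6 libraries, as was RNA of bone, blood and vessels, so the counts are those of dissected cochlear tissue and not of IHCs. Across all genes, 15.5% of the 15303 tested were called higher in Kir2.1-OE and 5.08% were called lower, where a call needs a fold change above 1.5 and a Benjamini-Hochberg adjusted p-value under 0.05 from edgeR's quasi-likelihood test. Higher genes made up 75.2% of these calls, and 57.9% when upper quartile scaling replaced TMM.

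Of the 5 genes, Ntf3 was called lower and Ntrk3 was called higher in Kir2.1-OE, against 20.5% of all tested genes called in either direction. Without the fold threshold 50.8% of all genes passed, 27.3% higher and 23.5% lower, and of the 5 genes the same 2, Ntf3 and Ntrk3. Ntf3 fell to 0.506 of the control level and Ntrk3 rose 1.70-fold, a call that was lost when transcript length and GC content were accounted for. Bdnf, Ntrk2 and Ngfr were not called. When edgeR's glmTreat asked for changes beyond 0.6 on the log2 scale, it called 0 of the 5 genes and 5.81% of all genes, 5.44% higher and 0.372% lower. At an unadjusted p-value under 0.05 this test picked 1 of the 5, Ntf3, and 12.9% of all genes, and DESeq2 and limma-voom each called 0 against that size.

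**Figure D1:**
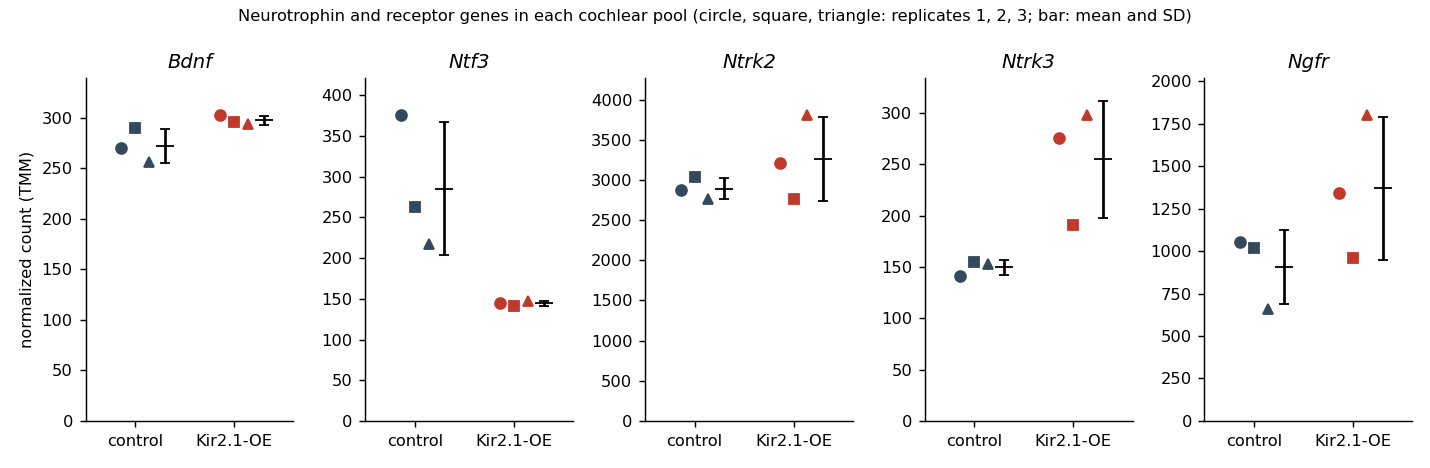
Normalized count (TMM scaling, axes from 0) of each gene in each pool, control in blue and Kir2.1-OE in red, with the group mean and SD as a bar beside the points. The 3 Kir2.1-OE pools sit together near 144 for Ntf3 and below every control pool, lie above every control pool for Ntrk3, and overlap the control pools for Ntrk2 and Ngfr.

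Bdnf and Ntf3 are transcribed from several start sites, and transcription of Bdnf in neurons is a known target of Ca2+ entry through the factor CREB, which binds the cAMP response element TGACGTCA or its half-site TGACG, which reads as CGTCA on the other strand. The 250 bases upstream of RefSeq start sites (GRCm38.p6) were searched for both motifs on both strands. The full element was in 0 of the 7 Bdnf windows and 0 of the 2 Ntf3 windows, and the half-site was in 1 Bdnf window and no Ntf3 window. Among all 32851 windows of this length 1.55% held the full element and 17.8% held the half-site. The Bdnf window with the half-site (chr2:109692186-109692435, plus strand, half-site in capitals) and both Ntf3 windows (chr6:126166745-126166994 and chr6:126164961-126165210, minus strand, with no such match) are shown as the sequences behind these counts. The other 6 Bdnf windows had no match, as the Ntf3 windows, and 1 window of 7 is near the share among all windows. A match of letters is a description of the window and not evidence that a factor binds there.
Bdnf, start site 3: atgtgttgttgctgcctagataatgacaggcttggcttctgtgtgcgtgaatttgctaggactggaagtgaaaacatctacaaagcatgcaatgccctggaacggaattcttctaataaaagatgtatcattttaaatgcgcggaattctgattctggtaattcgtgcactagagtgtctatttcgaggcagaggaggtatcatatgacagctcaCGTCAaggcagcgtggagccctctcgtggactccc
Ntf3, start site 1: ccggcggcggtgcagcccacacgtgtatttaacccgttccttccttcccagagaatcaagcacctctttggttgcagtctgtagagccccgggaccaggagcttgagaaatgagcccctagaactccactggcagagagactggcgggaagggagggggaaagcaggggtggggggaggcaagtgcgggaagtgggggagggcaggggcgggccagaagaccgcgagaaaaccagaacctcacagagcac
Ntf3, start site 2: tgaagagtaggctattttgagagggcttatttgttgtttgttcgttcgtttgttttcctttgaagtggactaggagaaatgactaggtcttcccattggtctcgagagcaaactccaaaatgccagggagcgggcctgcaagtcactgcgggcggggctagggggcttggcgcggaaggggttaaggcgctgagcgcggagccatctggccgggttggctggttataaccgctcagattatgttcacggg

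Ntf3, which encodes NT-3, the ligand of TrkC, was the gene that moved most. It lies on chromosome 6 (mm10, 126101412 to 126166910, minus strand). Its normalized counts were 144.6, 141.7 and 146.9 in Kir2.1-OE and 375.8, 263.2 and 217.6 in control. Each Kir2.1-OE pool lay below each control pool, and the spread was in the controls, where replicate 1 was the highest. The means were 144.4 ± 2.57 and 285.5 ± 81.4 (SD, n = 3 pools in each group). On the log2 scale the fold change was -0.98 with an SE of 0.201 (Benjamini-Hochberg adjusted p = 0.0032 by edgeR's quasi-likelihood test). Without control replicate 1 it was -0.74, and Ntf3 was called with any 1 library left out. Bulk counts cannot tell fewer cells of a type from less RNA in each cell, here and for every gene below.

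Bdnf, the ligand of TrkB, lies on chromosome 2 (109674700 to 109727007, plus strand), and its 11 annotated transcripts differ mainly in the start site used. Its normalized counts were 302.4, 295.5 and 293.8 in Kir2.1-OE and 269.6, 289.5 and 256.2 in control. The Kir2.1-OE pools were all above the control pools, by a small gap. Groups without overlap, in either direction, were seen for 61.6% of all tested genes. The means were 297.2 ± 4.61 and 271.8 ± 16.8 (SD, n = 3), a difference of 0.13 on the log2 scale (SE 0.116, adjusted p = 0.383, edgeR's quasi-likelihood test). Counts per gene do not separate transcripts that start at different Bdnf promoters.

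The balance of the 2 ligands was compared within each library, where the scaling between libraries cancels. There were 0.478, 0.48 and 0.50 Ntf3 counts per Bdnf count in Kir2.1-OE and 1.39, 0.909 and 0.849 in control, with no overlap. The mean ratios were 0.486 ± 0.0122 and 1.05 ± 0.299 (SD, n = 3, two-sided exact permutation p = 0.10 for the difference in mean log2 ratio). This is the smallest p that 3 pools against 3 allow. It was also the p for Bdnf, Ntf3 and Ntrk3 alone in an exact permutation test on their mean normalized counts, without logs.

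Ntrk3, which encodes the NT-3 receptor TrkC, lies on chromosome 7 (78175959 to 78738012, minus strand). Its normalized counts were 275.8, 190.7 and 298.0 in Kir2.1-OE and 141.3, 155.2 and 152.5 in control. All Kir2.1-OE pools were above all control pools, with replicate 2 closest to them. The means were 254.8 ± 56.7 and 149.7 ± 7.37 (SD, n = 3), a difference of 0.77 on the log2 scale with an SE of 0.184 (adjusted p = 0.00702, edgeR's quasi-likelihood test). The call was lost in each of 3 fits with offsets for transcript length and GC content, at 0.24, 0.21 and 0.58. Ntrk3 has 20 annotated transcripts, among them ones that lack the kinase, and counts per gene do not separate these from full-length TrkC.

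Ntrk2, which encodes the BDNF receptor TrkB, lies on chromosome 13 (58806569 to 59133970, plus strand). Its normalized counts were 3212, 2769 and 3807 in Kir2.1-OE and 2875, 3037 and 2767 in control. The groups overlapped, since Kir2.1-OE replicate 2 was level with the lowest control pool. With means of 3263 ± 521 and 2893 ± 136 (SD, n = 3) the difference was 0.17 on the log2 scale (SE 0.108, adjusted p = 0.207, edgeR's quasi-likelihood test), and it was 0.03 without Kir2.1-OE replicate 3. Truncated TrkB, which lacks the kinase and is known from glia and other non-neuronal cells, is counted under the same gene.

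Ngfr, the p75 receptor gene, lies on chromosome 11 (95568818 to 95587735, minus strand) and has 1 annotated transcript. Its normalized counts were 1344, 961.2 and 1801 in Kir2.1-OE and 1052, 1016 and 657.8 in control. Kir2.1-OE replicate 2 lay between control pools, so the groups overlapped. The means were 1369 ± 420 and 908.6 ± 218 (SD, n = 3), a difference of 0.59 on the log2 scale (SE 0.229, adjusted p = 0.0556, edgeR's quasi-likelihood test). Ngfr was the gene whose call turned on 1 library: without Kir2.1-OE replicate 2 the log2 difference was 0.77 (adjusted p = 0.0124, edgeR's quasi-likelihood test) and Ngfr was called, and without Kir2.1-OE replicate 3 it was 0.33.

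Ratios within libraries placed the receptors beside each other. Ntrk3 counts per Ntrk2 count were 0.0859, 0.0689 and 0.0783 in Kir2.1-OE and 0.0491, 0.0511 and 0.0551 in control, with no overlap (two-sided exact permutation p = 0.10, n = 3 in each group). Ntf3 counts per count of its receptor gene Ntrk3 were 0.587 ± 0.137 in Kir2.1-OE and 1.93 ± 0.648 in control (exact permutation p = 0.10, n = 3). Bdnf per Ntrk2, the other ligand and receptor pair, stood at 0.0927 ± 0.0148 and 0.0939 ± 0.00137 (exact permutation p = 0.90, n = 3). Ngfr per Ntrk2 was 0.413 ± 0.0631 and 0.313 ± 0.0668, with overlap between the groups (exact permutation p = 0.20, n = 3). In all 5 such ratios were computed, and the permutation tests compared mean log2 ratios. None of the 5 cancels the trend of fold change with transcript length that is given below. Genes of like longest transcript to Ntf3 and Ntrk3 had median log2 fold changes of -0.37 and 1.07. By the median coding transcript these medians were -0.19 and 0.15.

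To compare levels between genes, normalized counts were divided by the length in kilobases of the median coding transcript and by the library size, as RPKM values are. On this scale the control means were 25.3 ± 1.19 for Ntrk2, 7.03 ± 1.69 for Ngfr, 5.44 ± 1.55 for Ntf3, 1.86 ± 0.114 for Bdnf and 1.49 ± 0.0734 for Ntrk3 (SD, n = 3). Ngfr and Ntf3 overlapped in control pools, at 5.09 to 8.14 and 4.15 to 7.16, and no other neighbors in this order did. In Kir2.1-OE pools the levels were 28.5 ± 4.56 for Ntrk2, 10.6 ± 3.25 for Ngfr, 2.75 ± 0.049 for Ntf3, 2.54 ± 0.564 for Ntrk3 and 2.03 ± 0.0315 for Bdnf. There Ngfr and Ntf3 were apart, while the range of Ntrk3, 1.90 to 2.97, held the ranges of both ligands. With the longest transcript as the length, the control order was the same, but in Kir2.1-OE pools Ngfr, at 10.6 ± 3.25, and Ntrk2, at 9.95 ± 1.59, differed by less than their SD, and Ntrk3, at 0.345 ± 0.0767, was the lowest of the 5. The place of Ntrk3 beside the ligands thus depends on the transcript length used.

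The levels of other cell types differed between the libraries too. The summed normalized count of 14 spiral ganglion neuron markers was 46216, 32767 and 71381 in Kir2.1-OE and 34016, 33562 and 24880 in control. Of these 14 genes, 10 were called higher, among them the neurofilament genes Nefl, Nefm and Nefh, and 1, Uchl1, was called lower, and the sums of the groups overlapped. These named genes held most of the sum. Uchl1 had a mean of 8909 in Kir2.1-OE and 15547 in control. Nefl, Nefm and Nefh had means of 7288, 10130 and 7636 in Kir2.1-OE and 2489, 2635 and 1330 in control. The sum of 10 Schwann cell and glia markers was 466150, 417910 and 528390 in Kir2.1-OE and 291720, 362570 and 382950 in control, with 4 of 10 called higher, among them Mag, Prx and Erbb3. Within the Kir2.1-OE group, replicate 2 was lowest and replicate 3 highest in both sums and in Ntrk2, Ntrk3 and Ngfr. Sums of 7 cartilage and bone markers, 654970 to 785270 in Kir2.1-OE against 288780 to 408960 in control, and of 6 endothelial and pericyte markers, 13058 to 13447 against 7526 to 9570, did not overlap. The part of these cells in the receptor values was not tested.

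**Figure D2:**
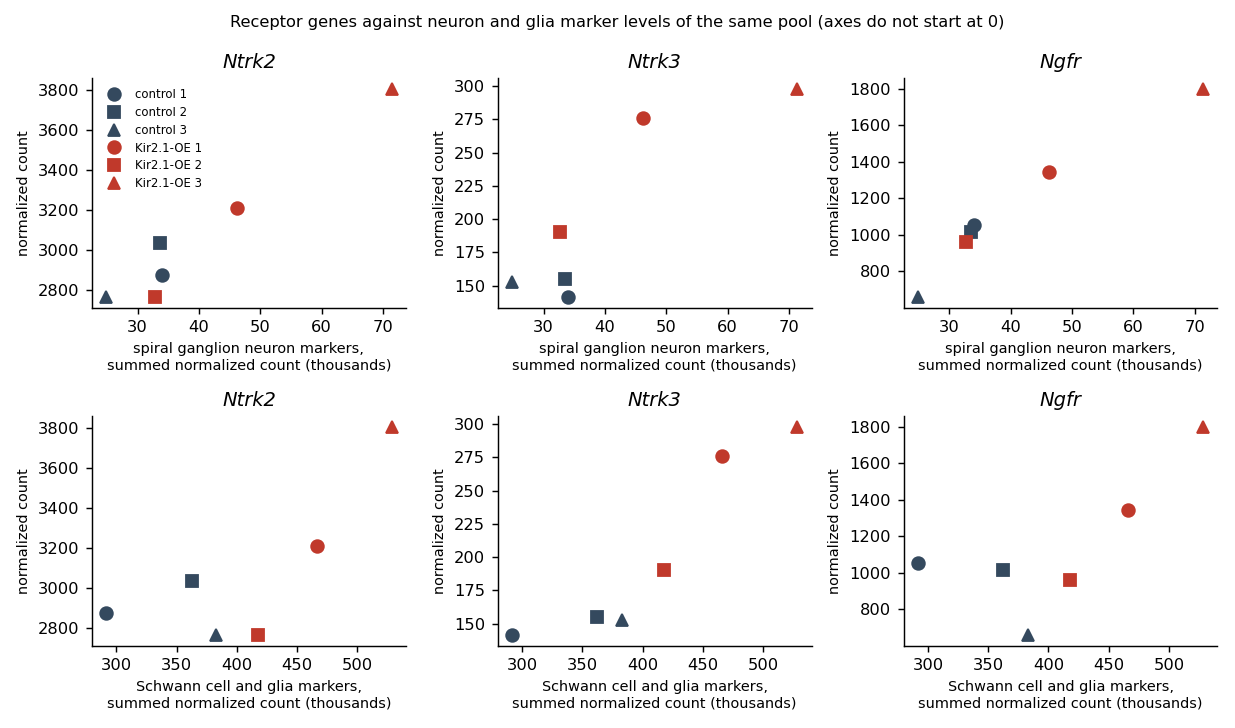
Normalized count of each receptor gene (y axis, not from 0) against the summed normalized count of spiral ganglion neuron markers (upper row) or Schwann cell and glia markers (lower row) in the same pool, with control in blue and Kir2.1-OE in red. Kir2.1-OE replicate 3, the triangle, is highest on both axes in all panels, and Kir2.1-OE replicate 2, the square, is the lowest of its group.

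Divided by the neuron marker sum of the same library, no receptor gene was higher in every Kir2.1-OE pool than in every control pool. Per 1000 counts of these markers, Ntrk3 had 5.97, 5.82 and 4.17 counts in Kir2.1-OE and 4.15, 4.62 and 6.13 in control, Ngfr 27.9 and 29.2 on average, and both overlapped. Ntrk2 had 69.5, 84.5 and 53.3 against 84.5, 90.5 and 111, where Kir2.1-OE replicate 2 was level with control replicate 1 and the other Kir2.1-OE pools were below the control pools. Per 1000 counts of Schwann cell and glia markers Ntrk3 and Ngfr again overlapped. Ntrk2 had 6.89, 6.63 and 7.21 there against 9.86, 8.38 and 7.22, with replicate 3 of the 2 groups level. Per 1000 counts of markers shared by hair cells Ntrk2 had 77.6, 67 and 80 against 86, 91.4 and 87.5, while Ntrk3 and Ngfr overlapped. Ntrk2 and Ngfr overlapped per 1000 counts of supporting cell markers. Per 1000 counts of 10 supporting cell markers, whose sum was between 102110 and 115310 in Kir2.1-OE and between 100590 and 109300 in control, Ntrk3 was 2.39, 1.69 and 2.92 against 1.29, 1.54 and 1.47, without overlap. The neuron marker sum is weighted by Uchl1 and the neurofilament genes, which moved in opposite directions, so it does not measure the number of neurons. The ratios to marker sums were added after the values had been seen and carry no test.

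Ntf3 stayed lower in Kir2.1-OE under each of the 4 marker sums tried. Per 1000 neuron marker counts it was 3.13, 4.33 and 2.06 against 11, 7.84 and 8.75, and per 1000 counts of supporting cell markers 1.25, 1.25 and 1.44 against 3.44, 2.62 and 2.1. The supporting cell sum held genes that differed in both directions: Prox1 and Otoa were called higher and Hes5 was called lower. Tecta, with 6191, 7749 and 8100 normalized counts in Kir2.1-OE and 25966, 11991 and 6257 in control, and Sox2, with 3376, 3325 and 3133 against 5099, 4120 and 3285, were not called but had the same order of control pools as Ntf3. Prox1 and Hes5 had this order too. The reverse order of control pools was seen for Gjb2, at 35325, 41443 and 45778, and for Gjb6, Otoa and Fgfr3. Lfng and Slc1a3 had neither order. The part of supporting cells in the Ntf3 values was not tested. Per 1000 counts of the 9 markers shared by hair cells it was 3.49, 3.43 and 3.09 against 11.2, 7.92 and 6.88. The sum of these 9 markers was 41308 to 47568 in Kir2.1-OE and 31629 to 33415 in control, with 4 of the 9 called higher, Myo6 and Calb2 holding most of the counts and Lhfpl5 at -0.56 on the log2 scale. The sum of 5 IHC markers was 10202 to 11995 against 8023 to 8616, with 2 of the 5, Otof and Slc7a14, called higher. Bdnf per 1000 hair cell marker counts was 7.31, 7.15 and 6.18 in Kir2.1-OE and 8.07, 8.72 and 8.10 in control, the opposite order to its normalized count. That sum held Calb2, with 14367, 12640 and 23142 normalized counts in Kir2.1-OE and 10890, 10746 and 9620 in control. The ratio without Calb2 was not computed. Per 1000 neuron, glia or supporting cell marker counts, Bdnf overlapped between the groups. Control replicate 1, the highest in Ntf3, also had the highest erythrocyte marker sum, 34119 against 7892 to 14437 in the other libraries.

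Fold changes in these libraries moved with transcript length, which bears on genes as unlike in length as these. Among genes whose longest annotated transcript had 1000 to 1500 nt the median log2 fold change was -0.37, and among those of 8000 to 12000 nt it was 0.77. Ntf3, with 1483 nt, was lower than its class: of 1094 genes of like length, 29, or 2.65%, had a lower fold change. The receptors Ntrk2, with 8744 nt, and Ntrk3, with 19703 nt, were under the medians of their classes, at 0.77 and 1.07, with 16.2% and 34.3% of the genes below them. Bdnf, with 4266 nt, had 41.6% of 3612 genes below it, and Ngfr, with 3446 nt, had 89.9% of 4722 genes below it. The median coding transcript is far shorter for Ntrk2, 3049 nt, and for Ntrk3, 2678 nt, and in that class of 3375 genes 52.2% and 87.6% were below them.

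**Figure D3:**
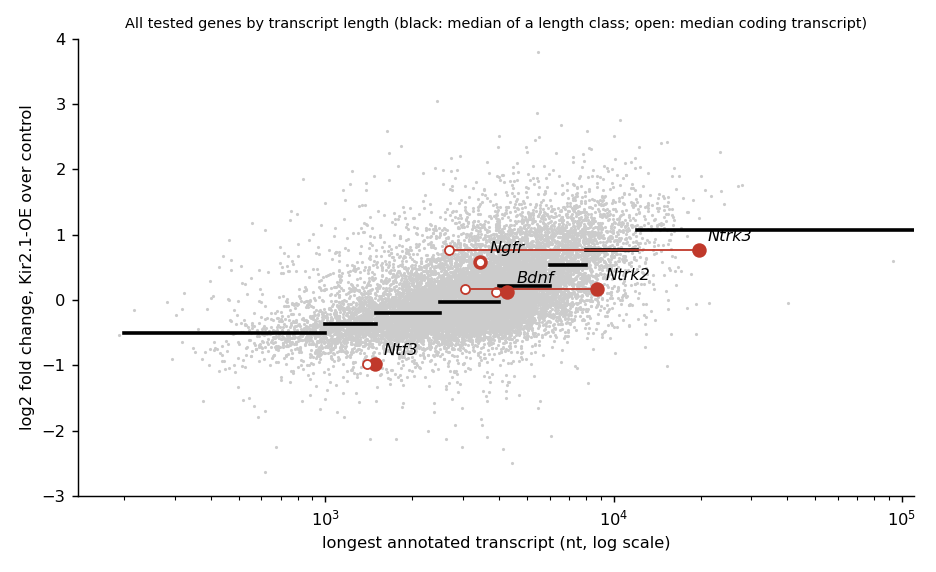
Log2 fold change (Kir2.1-OE over control) of all tested genes with an annotated length against the longest annotated transcript in nt on a log scale, with the median of each length class as a black line. Filled red points are the 5 genes at their longest transcript and open points the same genes at their median coding transcript; Ntf3 lies well under the line of its class, and Ntrk3 lies under it at 19703 nt.

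As an alternative, the model was given an offset per gene and library for length and GC content. With lengths from the longest transcript, 9.83% of all genes were called, 6.44% higher and 3.4% lower, and of the 5 genes 1, Ntf3, at a log2 fold change of -0.69 (adjusted p = 0.0235, edgeR's quasi-likelihood test). Ntrk3 went to 0.24 (adjusted p = 0.357) and lost its call, Ngfr went to 0.29 and Bdnf to 0.17 in the same test. Ntrk2 changed sign, to -0.46 (adjusted p = 0.0178, edgeR's quasi-likelihood test), and was not called because it lay inside the 1.5-fold threshold. With the median coding transcript, Ntf3 was at -0.88 (adjusted p = 0.00608) and called, Ntrk3 at 0.58 (adjusted p = 0.0243) and just under 1.5-fold, Ntrk2 at -0.03, Ngfr at 0.15 and Bdnf at 0.09 in that test.

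**Figure D4:**
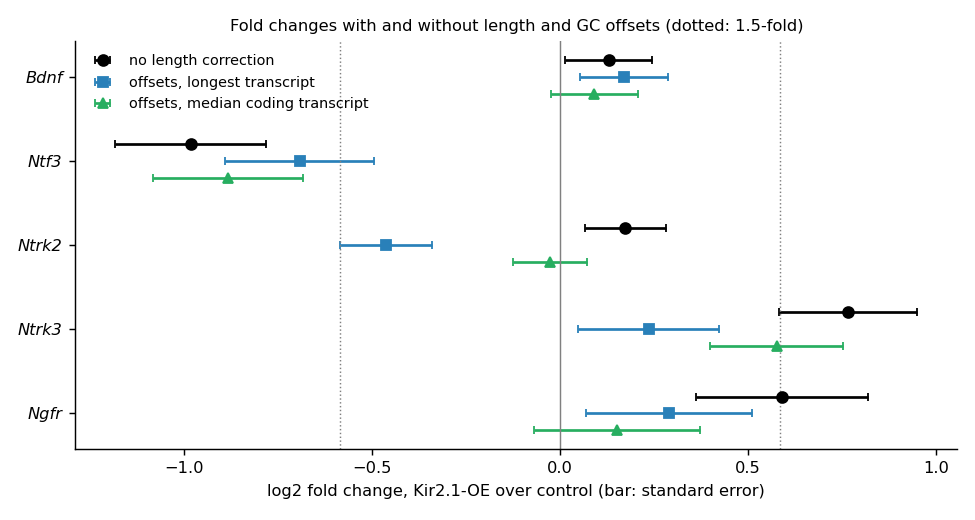
Log2 fold change, Kir2.1-OE over control, with its standard error as a bar for each gene without length correction (black circles) and with offsets from the longest (blue squares) or the median coding transcript (green triangles), dotted lines marking 1.5-fold. Ntf3 stays beyond the line in all 3 fits, Ntrk3 moves inside it, and Ntrk2 moves from 0.17 to -0.46 with the longest transcript.

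Around these genes, 5 lists of pathway members held 57 tested genes, of which 13 were called higher and 1 lower, beside 15.5% and 5.08% of all tested genes. These shares are the background for each list below. Among 5 other ligands and receptors of the family, all tested, 3 were called higher, with a median log2 fold change of 0.59 beside 0.01 over all tested genes. The called higher genes were the sortilin-related receptors Sorcs1, Sorcs2 and Sorcs3, at 0.78, 0.60 and 0.59. Sorcs1 had 1416, 1221 and 1405 normalized counts in Kir2.1-OE and 771.6, 839.5 and 740.2 in control, without overlap. Sort1, the sortilin gene, passed the adjusted p-value at 0.48 but not the fold threshold (adjusted p = 0.000625, edgeR's quasi-likelihood test). Ntf5, the other ligand of TrkB, had a log2 fold change of -0.18 (adjusted p = 0.541, edgeR's quasi-likelihood test). These last 2 genes, the rest of the list, were named after their values were seen.

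Of 10 genes that cleave proneurotrophins or regulate that cleavage, 7 were tested and 2 were called higher, the proprotein convertases Furin, at 0.93, and Pcsk5, at 0.61, with a list median of 0.21 on the log2 scale. Furin had 11562, 10921 and 9091 normalized counts in Kir2.1-OE and 5076, 6169 and 5321 in control. Among 21 Trk adaptors and effectors, all tested, 5 were called higher, with a median log2 fold change of 0.22. They were Kidins220, a scaffold of Trk receptors, at 0.92, the exchange factors Rapgef1 and Sos1, at 0.76 and 0.68, the phospholipase Plcg1, at 0.73, and the docking protein Gab2, at 0.69. Of 11 co-receptors and adaptors of p75, the median was -0.07, the Nogo receptor Rtn4r was called higher, at 0.75, and the p75 adaptor Bex1 was called lower, at -0.99. Bex1 had 343.5, 478.1 and 412.1 normalized counts in Kir2.1-OE and 1005, 735.1 and 718.8 in control.

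The GDNF and CNTF families are other trophic factors of sensory neurons. Of 14 of their ligands and receptors 13 were tested, with a median log2 fold change of 0.39, and 2 were called higher, the GDNF receptor kinase Ret, at 1.07, and Lifr, the receptor for LIF and CNTF, at 0.97. Ret had 251.2, 245.6 and 212.4 normalized counts in Kir2.1-OE and 117.2, 103.5 and 117.9 in control. With offsets from the longest transcript the list medians went to -0.05 for other family members, -0.08 for processing, -0.04 for Trk adaptors, -0.17 for p75 adaptors and 0.20 for GDNF and CNTF. In that fit 1 pathway gene, Ret, was called higher and 1, Bex1, was called lower.

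**Figure D5:**
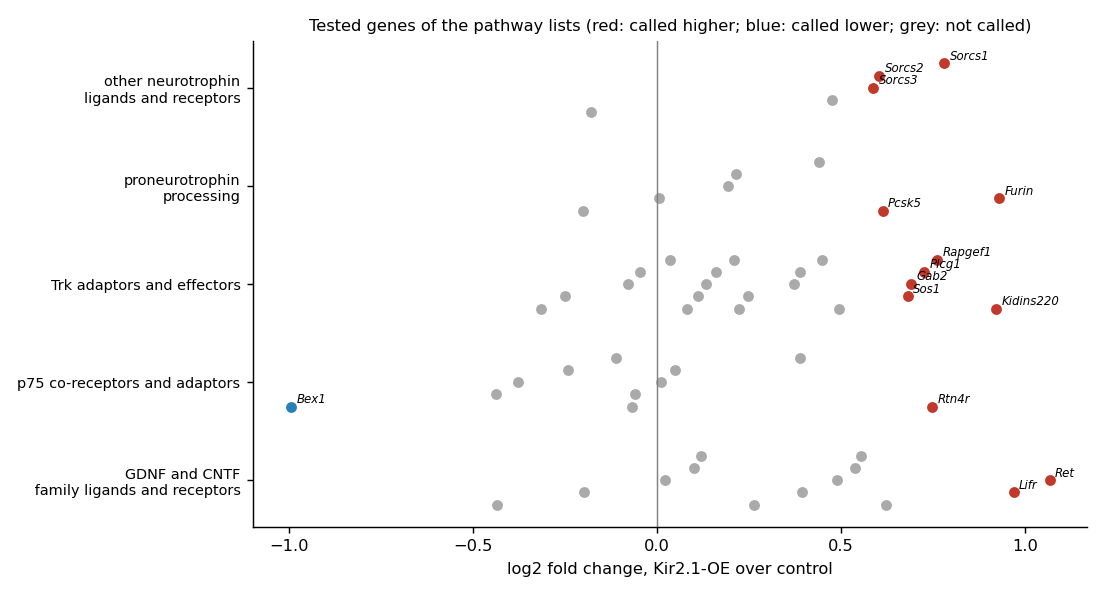
Log2 fold change (Kir2.1-OE over control, no length correction) of each tested gene of the 5 pathway lists, 1 row per list, with genes called higher in red, called lower in blue and the rest in grey. The 13 red points lie between 0.59 and 1.07, and the 1 blue point, Bex1, is at -0.99.

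For each of the 5 genes, the 3 genes whose log2 level over the 6 libraries was most correlated with it were listed from 13638 candidates, as a description. For Ntf3 these were Dach2, Pabpc4l and Abcb10, with Pearson's r of 0.996, 0.995 and 0.995, and for Bdnf Ift88, Ddx5 and Grik5, with 0.995, 0.992 and 0.991. Ntrk2 was most like Spp1, Hapln1 and Spock3, with r from 0.988 to 0.998, Ntrk3 most like Ppargc1a, Prune2 and Cadm3, with r from 0.992 to 0.997, and Ngfr most like Susd4, 2900011O08Rik and Crmp1, with r from 0.993 to 0.994. Such values are common across 6 libraries that fall into 2 groups and share depth and tissue makeup: between 70 genes, for Bdnf, and 299 genes, for Ntf3, passed r = 0.95.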

How the data were processed

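Poly(A) RNA was sequenced in pairs of reads by the authors, processed with the nf-core RNA pipeline at standard parameters, mapped to mm10 and quantified per gene with Salmon. The deposited values are expected counts (6.95% of them not whole) for 24411 gene symbols in each of 6 libraries. Tool versions, gene annotation, strand setting and duplicate removal are not given in the sources used here. Samples were grouped by genotype and numbered by their titles; the header of control replicate 1 carries the number 4.

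Expected counts were rounded and fitted with edgeR 4.0.16 in R 4.3.3 (TMM factors 0.984 to 1.01, filterByExpr, quasi-likelihood test, Benjamini-Hochberg adjustment over 15303 genes). Calls needed a fold change above 1.5 and an adjusted p-value under 0.05; glmTreat tested against 0.6 on the log2 scale. Errors are SD over pools. Libraries of a group differed beyond sampling noise (chi-square per degree of freedom 16.3 to 32.4). With 3 pools against 3, an exact permutation test cannot go below 0.10. The p-values set the difference between groups against variation between pools, not between mice. For that variation edgeR also draws on the other tested genes.

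Positions and lengths came from GENCODE vM21 (23376 symbols matched, 670 through an older symbol, 365 not). Loess trends (span 0.4) on log length and GC content gave the offsets. Antisense and other genes that overlap Bdnf, Ntrk2 and Ntrk3 are not listed in the tables, so shared reads cannot be told apart. Upstream sequences are RefSeq's, and Ntrk3 has no entry there. The genes, the lists and the alternatives were chosen with earlier results of these data known. Genes named are the 5 genes, Kcnj2, markers, all called pathway genes and the 3 most correlated genes for each of the 5, among genes with a mean of at least 50 normalized counts. Bex3 was read under its older symbol Ngfrap1. Some genes of the lists are not reported here. Alternatives were other scalings and filters, DESeq2 1.42.0, limma 3.58.1 with voom, unrounded counts, no fold change threshold, a replicate block, offsets and leaving out each library. Ratios to marker sums, offsets from the median coding transcript and blocking by the presence of Xist reads were chosen after seeing the data.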

Additional observations from a re-analysis of the deposited data

How the results depend on the processing

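Ntf3 kept its direction and its call in all 19 alternatives, from -1.14 without control replicate 3 to -0.66 with offsets and the replicate block, and Bdnf stayed uncalled in all 19, from 0.04 with upper quartile scaling to 0.18. Length and GC offsets were what changed most: with the offsets from the longest transcript, the same with the replicate block, and the median coding transcript, Ntrk2 turned to -0.46, -0.48 and -0.027, Ntrk3 lost its call at 0.24, 0.21 and 0.58, the genes called among the 5 went from 2 to 1, 1 and 1, and pathway genes called higher went from 13 to 1, 0 and 3. In the same 3 fits the calls over all tested genes fell too, from 2365 to 985, 800 and 1461 higher and from 778 to 520, 442 and 692 lower. Why length and fold change moved together was not tested. Ngfr passed with no filter on low counts (0.59, adjusted p = 0.0401, edgeR) and without Kir2.1-OE replicate 2 (0.77). With no fold change threshold 23 of 57 pathway genes were called higher and 5 lower, beside 27.3% and 23.5% of all genes. Pathway genes called lower went from 1, Bex1, to 2, Bex1 and Nrtn, with offsets from the median coding transcript.

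With 1 library left out, the log2 fold changes ranged from 0.09 to 0.18 for Bdnf, -1.14 to -0.74 for Ntf3, 0.03 to 0.25 for Ntrk2, 0.62 to 0.91 for Ntrk3 and 0.33 to 0.77 for Ngfr, the genes called among the 5 from 2 to 3, those past 0.6 stayed at 0, and pathway genes called ranged from 10 to 13 higher and stayed at 1 lower. Over all tested genes, the fits with 1 library left out called 1878 to 2527 genes higher and 536 to 1074 lower. After each genotype's gene means were subtracted, log2 levels of same-numbered libraries correlated at -0.106, -0.232 and -0.213. Libraries of unlike number correlated at 0.0061 to 0.2. Subtracting means of 3 libraries shifts such values, so they cannot show whether the numbers pair the samples. With the replicate block Ntf3 was at -0.95 (adjusted p = 0.00912, edgeR) and Ntrk3 at 0.74 (adjusted p = 0.0215, edgeR), both called. In that fit 2220 genes were called higher and 718 lower against 2365 and 778. With length and GC offsets 985 were called higher and 520 lower, and 1461 and 692 with the median coding transcript. DESeq2's Wald test gave Ntf3 -0.99 (adjusted p = 3.4e-05) and Ntrk3 0.76 (adjusted p = 0.000898). Depth limits pathway genes with few counts.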
